A study of Mus musculus with 1111 samples.

Results

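The autophagy machinery was followed in single mouse microglia through 10 genes: Rb1cc1 and Ulk1 of the initiation complex, Becn1 of the lipid kinase complex, Atg5, Atg7 and Atg16l1 of the conjugation step, Map1lc3b, Gabarap and Gabarapl2 of the Atg8 family, and the cargo receptor Sqstm1. They were chosen by name, and all 10 were found among the 35583 genes of the count tables. The cells were sorted from brains of 3-month-old mice, collected 20 hours after an injection of plasma proteins that carried the dye NHS-Atto647N, which attaches to amines. Every mouse had received the labelled plasma, and the cells were assigned to plasma none, plasma low or plasma high by the intensity of plasma protein in each cell, so plasma none is a group of cells without signal and not a group of uninjected mice. Strain, sex and the number of mice are not given in the sources used here. Libraries were made with Smart-seq2, a full-length method with 1 library per cell and no molecular identifiers. Of 1111 labelled cells 1045 were matched to a column, and 987 of these had at least 50000 reads and 500 genes. Plasma none made up 35.1% of the 987 cells, plasma low 35.6% and plasma high 29.4%. The labels carry a number from 1 to 3 after the letters TH, whose meaning is not stated. Since no label names an animal, each group is 1 sample of cells and no test or p-value is given. Errors are the SD over the 3 TH numbers (n = 3) and are not a spread between animals. In each TH number the 3 groups lay in separate plate columns, so group and plate column cannot be told apart.

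Macroautophagy encloses cytoplasm, damaged organelles or protein aggregates in a membrane that closes into an autophagosome and fuses with the lysosome. The kinase Ulk1 and its scaffold Rb1cc1 (FIP200) start the process, the Beclin 1 complex makes the phosphoinositide that marks the growing membrane, and a ubiquitin-like cascade led by the E1 enzyme Atg7 and the Atg5 and Atg16l1 complex attaches proteins of the Atg8 family to lipid. Parts of the same conjugation machinery act on single-membrane phagosomes and endosomes in phagocytes, microglia among them. Sqstm1 (p62) links ubiquitin-tagged cargo to Atg8 proteins. These steps are largely regulated on proteins, which transcript counts do not show.

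Transcription factors of the TFEB family bind sites with the core CACGTG at many autophagy and lysosome genes, and Nrf2 binds sites that hold TGANNNNGC. RefSeq promoter windows (GRCm38.p6, 250 bases before the start to 50 after it) were at hand for Ulk1, Atg5, Atg7, Map1lc3b, Gabarap, Gabarapl2 and Sqstm1. CACGTG was found in 2 of these 7 windows, Atg5 and Atg7, and in 7.15% of 32851 promoter windows of the same length. TGANNNNGC, searched on both strands, was found in 4 of 7, those of Atg5, Atg7, Map1lc3b and Gabarapl2, and in 41.3% of all windows. The windows with CACGTG are printed 5′ to 3′ to show where it lies, with CACGTG and TGANNNNGC (or its reverse complement) in capitals. The matches of the 2 motifs did not overlap each other. The Atg5 window is chr10:44268089-44268388 on the plus strand, and its CACGTG lies just upstream of the start. The Atg7 window is chr6:114670846-114671145 on the plus strand and lies inside the GENCODE gene, downstream of its 5′ end. A match is a description of letters and not of binding.
Atg5: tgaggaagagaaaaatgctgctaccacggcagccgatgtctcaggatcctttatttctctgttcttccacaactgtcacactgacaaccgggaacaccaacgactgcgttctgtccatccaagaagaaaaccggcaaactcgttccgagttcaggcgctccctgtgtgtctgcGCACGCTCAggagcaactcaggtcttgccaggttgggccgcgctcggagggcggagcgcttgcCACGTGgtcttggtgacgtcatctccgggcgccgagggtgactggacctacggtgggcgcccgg
Atg7: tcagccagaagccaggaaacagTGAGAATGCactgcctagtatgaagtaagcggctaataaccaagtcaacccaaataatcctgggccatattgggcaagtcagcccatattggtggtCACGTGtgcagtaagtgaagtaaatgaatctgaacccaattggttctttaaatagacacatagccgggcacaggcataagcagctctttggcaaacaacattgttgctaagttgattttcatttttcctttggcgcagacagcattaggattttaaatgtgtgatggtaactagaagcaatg

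The reads of the passing cells were summed by group and TH number into 9 sums of 21309816 to 49323522 reads and expressed as CPM, a gene's reads relative to all reads in genes, after TMM scaling. Known microglial markers were abundant in all 9 sums, between 45387 and 54371 CPM together, while each of 9 marker lists of other brain and blood cells stayed at or below 71.3 CPM, the neutrophil and lymphocyte lists at 0. The 10 members together gave 792 to 1209 CPM. More genes were detected per cell in the groups with plasma signal. With every cell thinned to 50000 reads, the median number of genes per cell was 1534 ± 77.6 for plasma none, 1813 ± 194.1 for plasma low and 1748 ± 111.5 for plasma high (mean over TH numbers ± SD, n = 3). The part of this difference in the results on members was not tested.

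Per kilobase of exon, the Atg8 protein gene Gabarap and the receptor Sqstm1 had the highest levels, at 89.3 and 77.9 CPM per kb over the 9 sums. Atg5 followed at 38.4, Gabarapl2 at 22.4, Map1lc3b at 21.3, Becn1 at 11.5 and Rb1cc1 at 9.45 CPM per kb. Atg16l1 at 3.72, Atg7 at 2.76 and Ulk1 at 1.83 CPM per kb were the lowest. The ranges over the 9 sums overlapped for 9 of the 9 pairs of neighbours in this order, so only the wider steps stand apart: the lowest Gabarap value, 63.6, was above the highest Atg5 value, 59.2 CPM per kb. Lengths are those of all annotated exons of a gene together. A read was found in 49.3% of the 987 cells for Gabarap, 44.5% for Sqstm1, 33.4% for Map1lc3b and 30.3% for Gabarapl2, and in 4.76% for Ulk1.

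**Figure D1:**
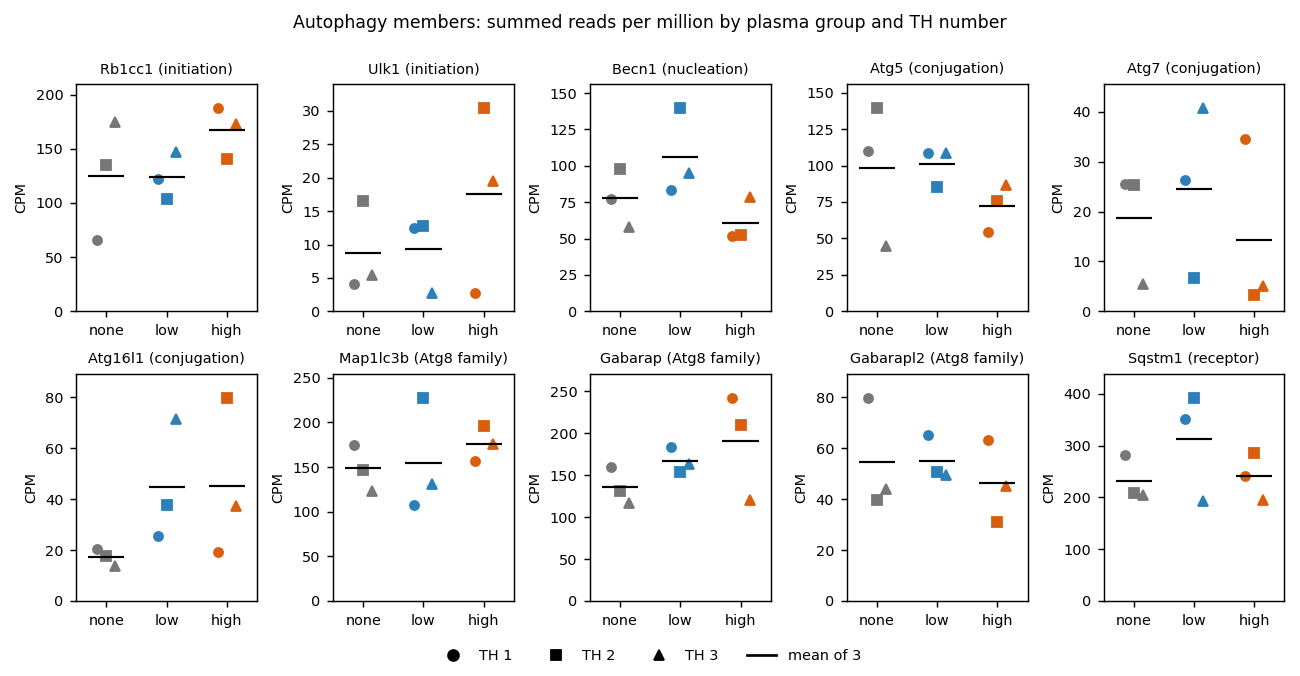
CPM (y axis, linear from 0, its own scale in each panel) of each of the 10 members in the 9 sums, by plasma group (x axis); marker shape gives the TH number and the line the mean of 3. The groups overlap in nearly every panel; Atg16l1 in plasma none (13.7 to 20.4 CPM) lies below plasma low (25.5 to 71.3 CPM).

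Between groups, differences were compared as the log2 ratio of CPM + 1 within each TH number, averaged over the 3. The 2-fold rule asked for a mean log2 ratio of 1 or more in either direction, with 1 sign in 3 of 3 TH numbers, in genes that reached 20 CPM and were read in 10% or more of a group's cells. Ulk1 and Atg7 did not reach these minimums, which left 8 of the 10 members for the rule in each comparison. Atg16l1 was the member that met the rule, in plasma low against plasma none, where 1 of 8 members stood beside 2.64% of 5489 genes. Atg16l1 passed the minimum of 10% of cells only through plasma low, the group where it was higher. In plasma high against plasma none 0 of 8 members met the rule, beside 5.15% of 5534 genes. In plasma high against plasma low 0 of 8 met it, beside 3.28% of 5709 genes. With a 1.5-fold rule the members were 0 of 8 beside 16.3% of genes in high against none, Atg16l1 beside 10.2% in low against none, and Becn1, lower in plasma high, beside 11.1% in high against low. The sums of the compared groups did not overlap for 0 of 8 members in high against none (13.9% of all genes tested), for Atg16l1 in low against none (9.55%) and for Becn1 in high against low (9.67%). At these levels, differences of most members were smaller than their spread over TH numbers: the mean log2 ratio was below its SD for 8 of 10 members in high against none, 7 of 10 in low against none and 6 of 10 in high against low.

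Of the conjugation genes, Atg16l1 (ENSMUSG00000026289, chr1:87755870-87792428, plus strand, mm10), which encodes the protein that places the Atg5 complex on the membrane, was higher in plasma low than in plasma none. Its sums in TH 1, 2 and 3 were 20.4, 17.8 and 13.7 CPM in plasma none, 25.5, 37.5 and 71.3 CPM in plasma low, and 19.2, 79.6 and 37.2 CPM in plasma high. All 3 plasma low sums lay above all 3 plasma none sums, while in plasma high the TH 1 sum lay among those of plasma none. The log2 ratio of plasma low against plasma none was 1.21 ± 1.004 (SD, n = 3), with 0.31, 1.04 and 2.29 in TH 1, 2 and 3. For plasma high against plasma none it was 1.13 ± 1.11, with -0.09 in TH 1, 2.1 in TH 2 and 1.37 in TH 3, and plasma high and plasma low differed by -0.08 ± 1.03. The call in plasma low was lost under 3 alternatives: the ratio was 0.67 without TH 3, 0.71 with every cell thinned to equal depth and 0.61 as a mean of each cell's own CPM, all short of 2-fold. Few cells carried it: a read was found in 6.07% of plasma none cells, 11.4% of plasma low cells and 12.1% of plasma high cells.

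Atg5 (ENSMUSG00000038160, chr10:44268358-44364291, plus strand), the partner joined to Atg12, showed no order between plasma none and the other groups. Its sums were 110.01, 139.1 and 44.9 CPM in plasma none, 108.9, 85.2 and 108.8 CPM in plasma low, and 54.4, 75.7 and 86.4 CPM in plasma high. Plasma none held both the highest and the lowest of the 9 values. Plasma high was below plasma low in 3 of 3 TH numbers, by -0.50 ± 0.43 on the log2 scale, though the highest plasma high sum lay just above the lowest plasma low sum. Atg7 (ENSMUSG00000030314, chr6:114643097-114860614, plus strand), the E1 enzyme of both conjugation branches, ranged from 3.32 to 40.7 CPM. Its spread within each group was as wide as the range between groups, with log2 ratios of 0.31 ± 2.24 for low against none and -0.76 ± 1.62 for high against none. In plasma high a single cell held 30.4% of its reads. A read of Atg5, Atg7 or Atg16l1 was found in 29.7% of the 987 cells, and reads of all 3 in 3 cells.

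Becn1 (ENSMUSG00000035086, chr11:101285952-101302286, minus strand), the Beclin 1 subunit of the class III lipid kinase complex, was lower in plasma high than in plasma low. Its sums in TH 1, 2 and 3 were 77.1, 98 and 57.9 CPM in plasma none, 83.5, 139.4 and 94.9 CPM in plasma low, and 51.4, 52.6 and 78.8 CPM in plasma high. Each plasma high sum lay below each plasma low sum, and plasma none overlapped both. The log2 ratio of plasma high against plasma low was -0.78 ± 0.57 (SD, n = 3), with -0.69, -1.39 and -0.27 in TH 1, 2 and 3. It was -1.04 without TH 3 and -0.48 without TH 2, where it no longer reached 1.5-fold. Plasma low was above plasma none in 3 of 3 TH numbers, by 0.44 ± 0.30. The gene Cntd1, on the opposite strand, spans 6029 bases of Becn1 exons and was itself given 28.8 CPM. Whether the counting used strand is not given in the sources used here, so reads of the shared stretch may be assigned to either gene.

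The initiation scaffold Rb1cc1 (ENSMUSG00000025907, chr1:6206197-6276648, plus strand) had sums of 65.4, 135.5 and 175.1 CPM in plasma none, 121.7, 103.8 and 146.9 CPM in plasma low, and 187.2, 140.6 and 172.9 CPM in plasma high. The low TH 1 value of plasma none sets its mean ratio in plasma high against plasma none, 0.51 ± 0.86, since TH 1 gave 1.5 and TH 2 and TH 3 gave 0.05 and -0.02. Plasma high was above plasma low in 3 of 3 TH numbers, by 0.43 ± 0.19, but by 0.12 with cells thinned to equal depth. The antisense gene 4732440D04Rik spans 558 bases of Rb1cc1 exons and was given 10.5 CPM, so some reads may belong to either gene. The kinase Ulk1 (ENSMUSG00000029512, chr5:110784488-110810097, minus strand) ranged from 2.71 to 30.4 CPM, and both ends of that range were plasma high sums. A single cell held 62% of the Ulk1 reads of plasma high.

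The Atg8 family genes, whose proteins are joined to lipid on the autophagosome, differed little between groups. Gabarap (ENSMUSG00000018567, chr11:69991143-69994951, plus strand) had sums of 159.96, 131.7 and 117.3 CPM in plasma none, 183.3, 153.9 and 163.2 CPM in plasma low, and 241.9, 210.2 and 120.7 CPM in plasma high. It was above plasma none in 3 of 3 TH numbers in both other groups, by 0.30 ± 0.15 in plasma low and 0.44 ± 0.34 in plasma high, although the sums overlapped in both comparisons. It was the only member with 1 sign in 3 of 3 TH numbers for plasma high against plasma none.

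Map1lc3b (ENSMUSG00000031812, chr8:121590361-121598760, plus strand), which encodes LC3B, had sums of 175.01, 146.9 and 123.5 CPM in plasma none, 107.1, 227.3 and 130.9 CPM in plasma low, and 156.4, 196.2 and 175.7 CPM in plasma high. Its ratio to plasma none was 0.25 ± 0.36 in plasma high and 0.0021 ± 0.67 in plasma low, where the TH numbers took opposite signs. The readthrough gene Gm20388 spans all Map1lc3b exons and was given 38.2 CPM of its own, so the Map1lc3b value depends on how shared reads were assigned. Gabarapl2 (ENSMUSG00000031950, chr8:111940703-111953612, plus strand), also known as GATE-16, had sums of 79.7, 39.8 and 43.9 CPM in plasma none, 65.4, 50.6 and 49.5 CPM in plasma low, and 63.2, 31 and 45.3 CPM in plasma high. The groups overlapped, and plasma high lay below plasma low in 3 of 3 TH numbers, by -0.29 ± 0.35. Of the 987 cells, 75.4% had a read of at least 1 of these 3 Atg8 genes and 5.27% had reads of all 3.

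Sqstm1 (ENSMUSG00000015837, chr11:50199366-50210827, minus strand), the receptor and itself a cargo of autophagy, had the highest CPM of the members, not counting gene length. Its sums were 281.6, 209.2 and 205.1 CPM in plasma none, 351.3, 391.6 and 192.4 CPM in plasma low, and 241.3, 285.4 and 195.1 CPM in plasma high. The plasma low sums of TH 1 and TH 2 were the highest of the 9, whereas the plasma low sum of TH 3 was the lowest. The log2 ratio to plasma none was 0.38 ± 0.50 in plasma low and 0.05 ± 0.35 in plasma high, both smaller than their spread. TH 3 was the lowest of the 3 TH numbers for Sqstm1 in every group. Mrnip, on the opposite strand, spans 750 bases of Sqstm1 exons and was given 6.86 CPM.

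**Figure D2:**
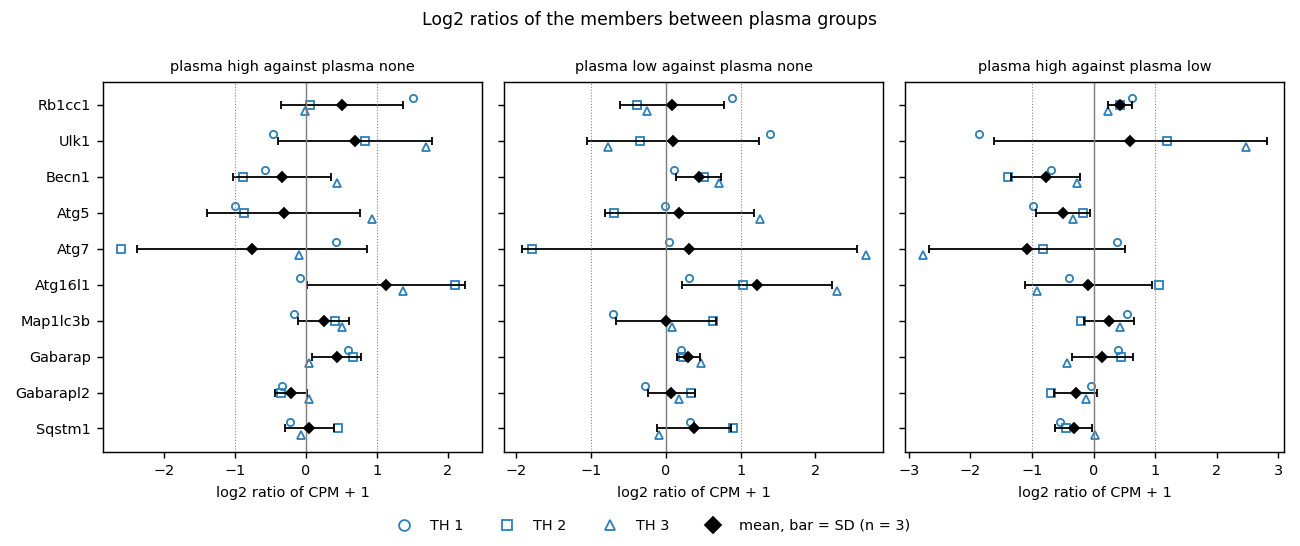
Log2 ratio of CPM + 1 (x axis, its own scale in each panel) of the 10 members in the 3 comparisons; open markers are TH numbers, diamonds the mean with its SD (n = 3), dotted lines a 2-fold difference. In plasma low against plasma none all 10 means lie above 0, beside 52.3% of all genes of at least 5 CPM. Of the 10 means, 7 are smaller than their SD and Map1lc3b is at 0.0021. The comparisons share groups.

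All 10 mean ratios of plasma low against plasma none were above 0, as were 52.3% of all genes of at least 5 CPM. The median of the members was 0.24 (0.15, 0.28 and 0.32 within TH 1, 2 and 3) beside 0.030 for all these genes. Map1lc3b was at 0.0021 and turned negative with library size scaling, DESeq2 size factors, thinned cells and the mean of each cell's CPM, which left 9 of 10 each time. With cells of at least 100000 reads Map1lc3b (-0.020) and Gabarapl2 (-0.0012) were negative, which left 8 of 10. Without the top cell of each sum Rb1cc1 was at -0.12, which left 9 of 10. With a TH number left out 7 or 8 of 10 were above 0. Against plasma none, plasma high had 6 members higher and 4 lower, where 51.9% of all genes were higher. The median of the members was 0.15 (-0.19, 0.23 and 0.24 within TH 1, 2 and 3) beside 0.028. That median was 0.034 without the top cell of each sum, 0.060 with thinned cells and 0.069 as a mean of each cell's CPM. Plasma high against plasma low gave 4 higher and 6 lower members. Their median was -0.19 (-0.22, -0.19 and -0.20 within TH 1, 2 and 3) beside -0.010. With a TH number left out this median was -0.28 to -0.10, a wider range than that of the 3 values within TH numbers. The 3 comparisons share groups and are not independent of each other.

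The share of cells with a read gave a more even picture than the level. With all cells thinned to 50000 reads, plasma none had the lowest share for 9 of the 10 members, Atg7 being the exception. The share of Sqstm1 was 37.6% of plasma none cells (95% exact binomial interval 32.5 to 42.9), 46.7% of plasma low cells (41.4 to 52.1) and 45.5% of plasma high cells (39.7 to 51.4). Gabarap had 42.2% (36.9 to 47.6), 51% (45.6 to 56.3) and 51.4% (45.5 to 57.3), and Gabarapl2 23.4% (19 to 28.2), 31.6% (26.8 to 36.8) and 29% (23.8 to 34.6). The intervals cover counting error over cells only, and those of plasma none overlapped those of the other groups for these genes. Rb1cc1 was read in 18.2%, 23.6% and 25.5% of thinned cells of plasma none, low and high, Map1lc3b in 27.5%, 34.8% and 34.8%, and Atg16l1 in 5.78%, 9.97% and 11.4%. Before thinning, the shares in the same order were 38.7%, 48.1% and 46.9% for Sqstm1 and 43.4%, 52.7% and 52.4% for Gabarap.

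Within TH numbers, the thinned share was higher in plasma low than in plasma none in 3 of 3 for 7 of 10 members (Rb1cc1, Ulk1, Becn1, Atg5, Gabarap, Gabarapl2 and Sqstm1), beside 28.9% of the genes of at least 5 CPM. Among genes that passed the minimums of the 2-fold rule, these were 6 of 8 members beside 38.8%. In plasma high against plasma none they were 6 of 10 (Rb1cc1, Atg16l1, Map1lc3b, Gabarap, Gabarapl2 and Sqstm1) beside 27%, and 6 of 8 beside 34.9%. In plasma high against plasma low 0 of 10 were higher in 3 of 3, beside 11.7%, and 0 of 8 beside 12.3%. For Becn1, Atg5 and Gabarapl2 in plasma high against plasma none the share and the CPM ratio pointed in opposite directions, so no order is read there. The median difference of the members was 5.46 percentage points in low against none and 5.56 in high against none, beside 1.42 and 1.2 for all genes of at least 5 CPM. The larger number of genes detected per cell in plasma low and plasma high moves in the same direction.

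**Figure D3:**
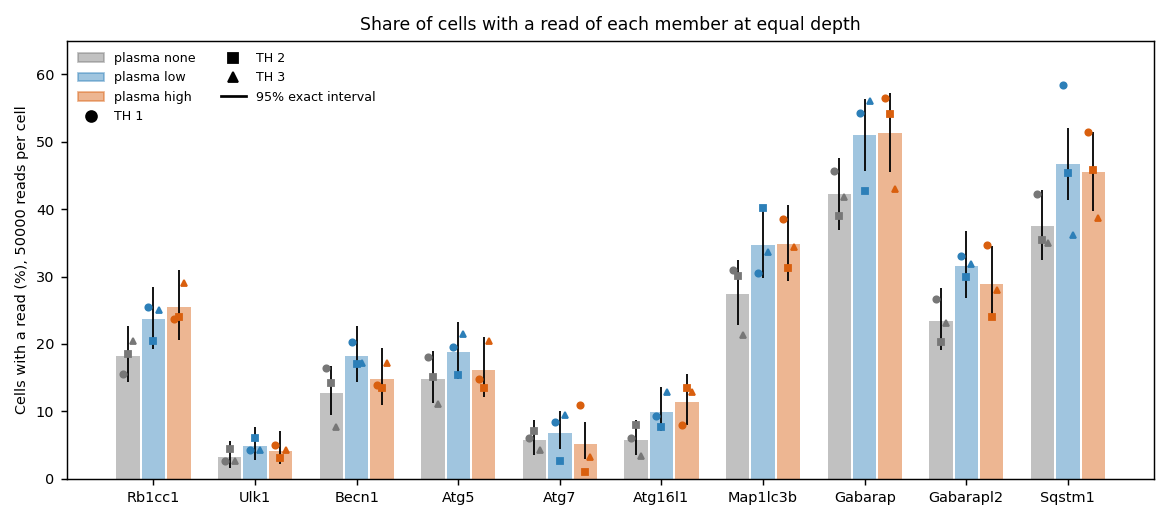
Share of cells (%) with a read of each member after thinning every cell to 50000 reads; bars are the share over all cells of a group, lines the 95% exact interval, markers the 3 TH numbers. The plasma none bar is the lowest for 9 of 10 members.

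Per cell, 2.01 ± 0.22 of the 10 members had a read in plasma none, against 2.63 ± 0.22 in plasma low and 2.52 ± 0.21 in plasma high (mean over TH numbers ± SD, n = 3). At equal depth the means were 1.91 ± 0.20, 2.46 ± 0.18 and 2.38 ± 0.18. In TH 1, 2 and 3 the thinned means were 2.1, 1.92 and 1.71 in plasma none, 2.64, 2.27 and 2.48 in plasma low, and 2.57, 2.24 and 2.31 in plasma high. The values of plasma none lay below all values of the other groups. Set against the genes detected, the difference was smaller, with 1.24, 1.40 and 1.37 members per 1000 detected genes in thinned cells of plasma none, low and high. Reads of 5 or more members were found in 1.45% of thinned plasma none cells, 8.83% of plasma low cells and 5.86% of plasma high cells. No member was read in 11.3%, 7.12% and 6.90% of them.

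**Figure D4:**
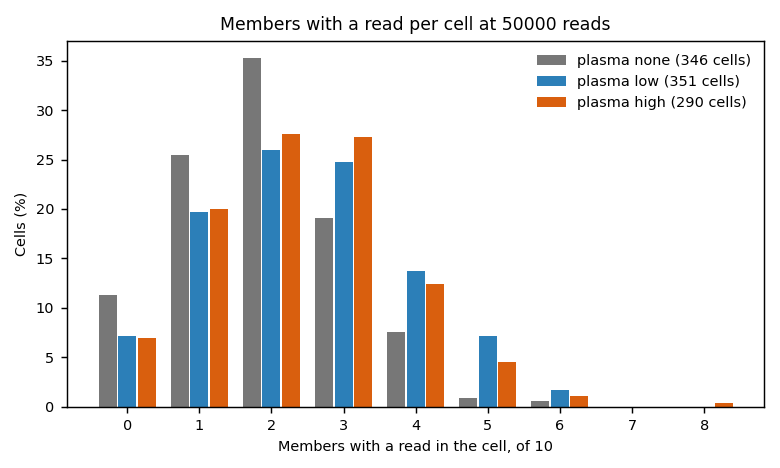
Percent of cells (y axis) by the number of the 10 members with a read (x axis) after thinning to 50000 reads, by plasma group (987 cells in all). Plasma none has a larger percent of cells with 0 to 2 members than the other groups and a smaller one with 3 to 6.

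Where a member was detected, its level was mostly lower in the groups with plasma signal, as was that of most genes tested. In thinned cells with a read, the median level of Sqstm1 was 600 CPM in plasma none, 490 CPM in plasma low and 450 CPM in plasma high. Rb1cc1 had 520, 280 and 280 CPM and Atg5 had 640, 390 and 400 CPM in the same order, whereas Becn1 had 510, 550 and 460 CPM. The median was lower than in plasma none for 7 of the 8 members tested in plasma high and for 6 of 8 in plasma low, as it was for 65.8% and 68.1% of all genes tested. The median ratio to plasma none was 0.872 for the members and 0.875 for all genes tested in plasma high. In plasma low these were 0.871 and 0.857, so the members did not stand apart.

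The wider pathway was covered by 53 other autophagy genes, of which 52 had at least 5 CPM. Their median log2 ratio was 0.23 in plasma low against plasma none, 0.060 in plasma high against plasma none and 0.060 in plasma high against plasma low. By the 2-fold rule, 2 of 31 were called in low against none (2.64% of all genes tested), both higher: the receptor Tollip (1.01 ± 0.40) and the SNARE Ykt6 (1.23 ± 0.38). In high against none 3 of 32 were called (5.15% of all genes): Atg14, which directs the Beclin 1 complex to autophagy, was higher by 1.06 ± 0.91, the tethering subunit Vps39 was higher by 1.59 ± 1.52, and the Atg8 protease Atg4d was lower by -1.09 ± 0.13. A single cell held 46% of the Vps39 reads of plasma high. In high against low 1 of 33 was called (3.28% of all genes), Tecpr1, lower by -1.85 ± 0.98, and a single cell held 46.9% of its plasma high reads. Of the genes called here, Tollip, Atg14, Vps39, Atg4d and Tecpr1 passed the minimum of 10% of cells only through the group where they were higher. Ykt6 passed it in both groups compared.

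By the 1.5-fold rule, 4 receptors were called in each comparison with plasma none, of 8 tested in plasma low (10.2% of all genes) and 9 tested in plasma high (16.3%). Tollip, the mitophagy receptors Bnip3l and Fundc1, and the ferritin receptor Ncoa4 were higher than plasma none in both other groups, which are compared with the same plasma none cells. Bnip3l had sums of 44.8, 80.8 and 91.6 CPM in plasma none, 117.1, 146.6 and 114.5 CPM in plasma low, and 100.1, 110.4 and 148.4 CPM in plasma high, with no overlap of plasma none and the other groups. Its log2 ratio was 0.85 ± 0.52 in low against none and 0.76 ± 0.35 in high against none. Fundc1 had 54.2, 46.5 and 50.8 CPM in plasma none, 92, 73.8 and 99.7 CPM in plasma low, and 89.1, 167.3 and 66 CPM in plasma high, again without overlap. Its ratios were 0.79 ± 0.16 and 0.97 ± 0.76, and those of Ncoa4 were 0.85 ± 0.36 and 0.82 ± 0.50. Sums without overlap were found for 6 of 31 other autophagy genes in low against none, beside 9.55% of all genes tested. In high against none they were found for 6 of 32, beside 13.9%. Over the receptors with at least 5 CPM the median ratio was 0.39 in low against none and 0.51 in high against none. Within TH 1, 2 and 3 the medians were 0.56, 0.16 and 0.40 in low against none. In high against none they were 0.47, 0.36 and 0.27, all below 0.51. Sqstm1 gave ratios of 0.38 and 0.05. The fusion genes had medians of 0.42 and 0.060 in the same order, the other Atg8 genes 0.14 and 0.66. Initiation gave 0.23 and -0.13, conjugation 0.0039 and 0.33, and nucleation -0.22 and -0.16.

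Other genes past the 1.5-fold rule in plasma low against plasma none were the E2 enzyme Atg3 (0.77 ± 0.77) and the tethering subunit Vps16 (0.73 ± 0.43), which made 7 of 31 in all, each of them higher, beside 10.2% of all genes tested in either direction. In plasma high against plasma none the lipid kinase Pik3c3 was added (0.88 ± 0.74), for 7 higher and 1 lower of 32, beside 16.3% of all genes. Pik3c3 passed the minimum of 10% of cells only through plasma high. In plasma high against plasma low Gabarapl1, the close relative of Gabarap, was higher by 0.91 ± 0.62, and Tecpr1 and Vps11 were lower, Vps11 by -0.98 ± 0.15, which made 3 of 33 beside 11.1% of all genes. Becn1 and its partner Atg14 took opposite signs against plasma none in plasma high, at -0.34 ± 0.69 for Becn1.

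**Figure D5:**
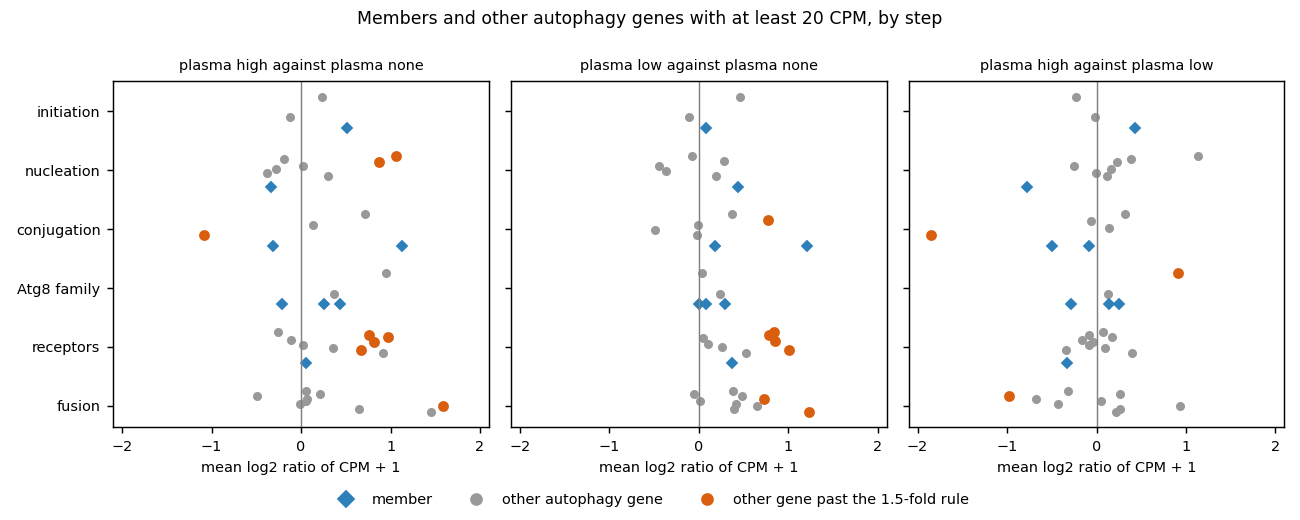
Mean log2 ratio of CPM + 1 (x axis) of members (diamonds) and other autophagy genes (circles) by step of the pathway, for genes that passed the minimums of 20 CPM and 10% of cells; Ulk1 and Atg7 did not. Orange circles passed the 1.5-fold rule, 8 in high against none, 7 in low against none and 3 in high against low.

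Across the 987 cells, with the mean of each group and TH number removed, the members varied nearly independently. Pearson's r of log2(CPM + 1) over the 45 pairs of members had a median of 0.008 and ranged from -0.068 to 0.128, and 1 pair, Ulk1 and Atg7, was above 0.1. The genes most like Sqstm1, of 577 with at least 100 CPM and a read in at least 50% of cells, were Arf1 (r = 0.13), Ctsd (0.12) and Gm49369 (0.11). Those most like Gabarap were Gm20605, Grn and Spi1, each at 0.11. All points share libraries and depth, and in counts this sparse correlations of this size are no finding.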

How the data were processed

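Reads per gene were measured in single microglia. The deposited tables hold counts per gene and cell, 1 table per TH number; 1 column held values that were not all whole, so its deposited expected counts were rounded. Per the submitters' processing notes, bcl2fastq, Trim Galore, STAR 2.5.3a, Seurat and mm10 were used; counting tool and strand are not given in the sources used here. Per the file headers, TH 2 and TH 3 columns came from alignments reduced to top hits and TH 1 columns carry no such note, so ratios were taken within TH numbers. Statements on whether sums overlap compare all 3 sums of each group and so cross TH numbers. 0 columns were unused, and 66 labelled cells were not analysed here.

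Cells with at least 50000 reads and 500 genes were summed into 9 sums, scaled by TMM (edgeR 4.0.16, R 4.3.3) and compared as log2(CPM + 1). Thinning drew 50000 reads per cell at random. Cells were sorted singly, so no doublet caller was run. Without unique molecular identifiers, intervals cover counting error only. Coordinates are from GENCODE M21. Every member was named; other autophagy genes were named where they met the 2-fold or 1.5-fold rule. Members and lists were chosen with earlier results of these data known. Scripts were tested on simulated data. Alternatives covered scaling, filters, depth, pseudocount, DESeq2 1.42.0 and each TH number left out.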

Additional observations from a re-analysis of the deposited data

How the results depend on the processing

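The log2 ratios of the members gave 450 values under alternatives, of which 447 moved by less than 1 SD over TH numbers. That count says little about robustness. Leaving out 1 of 3 TH numbers cannot move a mean by 1 SD of the 3, and the SD exceeded the ratio for most members. The other sign was seen for 29 values, none of them for a called value. Atg16l1 met the 2-fold rule in plasma high against plasma none (count 1 in place of 0) with cells of at least 100000 reads, without the top cell of each sum and without TH 1 (range 0 to 1 over TH numbers left out). In plasma low against plasma none the count fell to 0 with thinned cells and with the mean of each cell's CPM, and was 0 to 1 with each TH number left out. In plasma high against plasma low Becn1 made the count 1 at 1.5-fold and without TH 3 (0 to 1). The median of the members was 0.034 to 0.167 in high against none over all alternatives, and 0.23 to 0.35 in low against none with a TH number left out. In high against low it was -0.22 with library sizes, -0.23 without top cells, -0.16 with a pseudocount of 5 CPM, -0.12 by edgeR with no replicate block and -0.28 to -0.10 with a TH number left out. The count of members with a higher thinned share, an alternative chosen after seeing the data, was 1 to 2 there. With the TH number as a replicate block, edgeR gave 1.24 for Atg16l1 in low against none, and 1.37 with no replicate block. What a TH number pairs is not stated. The p-values of edgeR and DESeq2 were not used, since no animal is named. The causes were not tested. Shares of cells were more than 1 SD lower for 12 of 30 values when at least 10 reads were required. Ulk1, Atg7 and Atg16l1 were each read in under 10% of all cells, so few cells set their values.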
